A study of Mus musculus with 36 samples.

Results

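The comparison is D310N against WT macrophages after 60 min of lipopolysaccharide (LPS), and it rests on 6 of the 36 libraries of the series, 3 of each genotype, taken by their labelled genotype and time. RNA was sequenced as 75 bp single reads from mouse bone marrow-derived macrophages, which are cells grown out of bone marrow, here over 7 days in non-adherent dishes with RPMI medium, 10% fetal calf serum and 10% L929 supernatant, a source of the growth factor M-CSF. The D310N 60 min group carried the D310N form of Tnip2 and received 100 ng/ml LPS for 60 min, and the WT 60 min group carried wild-type Tnip2 and received the same dose for the same time. The other groups used here were D310N and WT cells left unstimulated (0 min) or given the same dose for 30, 120, 240 or 360 min, again 3 libraries each. The mutation is called D310N in the titles but D309N in the column names of the table. The labels give neither the strain, age or sex of the animals nor whether the replicates came from separate animals or cultures. The p-values below therefore measure the spread between these libraries, which may be technical.

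Tnip2 encodes ABIN-2, an adaptor that binds and stabilises the kinase Tpl2 (Map3k8) and carries a ubiquitin-binding motif, in which the altered residue lies. LPS is sensed by TLR4, which acts through adaptors, ubiquitin chains and kinases on NF-kB, on MAP kinases (ERK by way of Tpl2) and on IRF3, the factor that starts interferon-beta transcription. At 60 min the immediate early genes, the first cytokines and chemokines and interferon-beta itself are being transcribed, while most genes that answer to secreted interferon come later.

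Of 16416 named genes in the table, 11659 reached a linear value of about 10 in 3 or more libraries and were tested. The third-highest value of the gene nearest inside this limit, Gm5127, was 3.3207, and that of the nearest gene outside it, 4930552P12Rik, was 3.3164. Library medians over the series were 6.83 to 7.20, with 7.05 to 7.07 in D310N and 7.13 to 7.14 in WT at 60 min. Read depth is unknown, because the table holds normalised log2 values and no counts. The transformation behind these values is not given in the sources used here, and it pulled low values together: the median SD within groups was 0.0463 in the lowest 10% of genes and 0.0682 in tested genes, so differences of weakly expressed genes are likely understated. In bulk RNA, fewer cells of a type and less RNA per cell cannot be told apart. All 10 macrophage markers checked were present in the 6 libraries, with a mean of at least 9.57 each, and their summed linear level was 281000 to 298000 in D310N and 299000 to 306000 in WT. Of 10 neutrophil markers 2 passed the filter, as did 2 of 8 T and NK cell markers, 1 of 6 B cell markers, 4 of 6 dendritic cell markers, 1 of 6 stromal markers and 1 of 7 erythroid, megakaryocyte and mast cell markers. A library labelled WT 360 min, replicate 1, stood apart: its median distance from the mean of WT 240 min was 0.0726, against 0.194 from its own group's other 2 libraries. It is not in the 60 min contrast but adds to the shared estimate of spread, and counts without it are given beside those it moves.

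At 60 min, 1498 genes (12.8%) were called at an adjusted p under 0.05 by limma with Benjamini-Hochberg adjustment. Of these, 570 (4.89%) were higher and 928 (7.96%) lower in D310N, and the median size was 0.35 among called genes and 0.09 among all tested genes. Large differences were few: 56 genes (0.480%) passed with a size over 1, of which 27 were higher and 29 lower. The higher ones include processed pseudogenes (intronless gene copies), such as Gm6654 (1.88) and Gm12657 (1.12), which are described further below. Without the library labelled WT 360 min replicate 1 the same test called 2084 genes, 868 higher and 1216 lower. Without D310N replicate 1 it called 986, with 356 higher, and the higher count was also reduced without D310N replicate 3 (363) and without WT replicate 1 (346). In 4356 tested genes (37.4%) the 3 D310N and 3 WT values did not overlap, and this held for 1487 of the 1498 called genes.

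**Figure D1:**
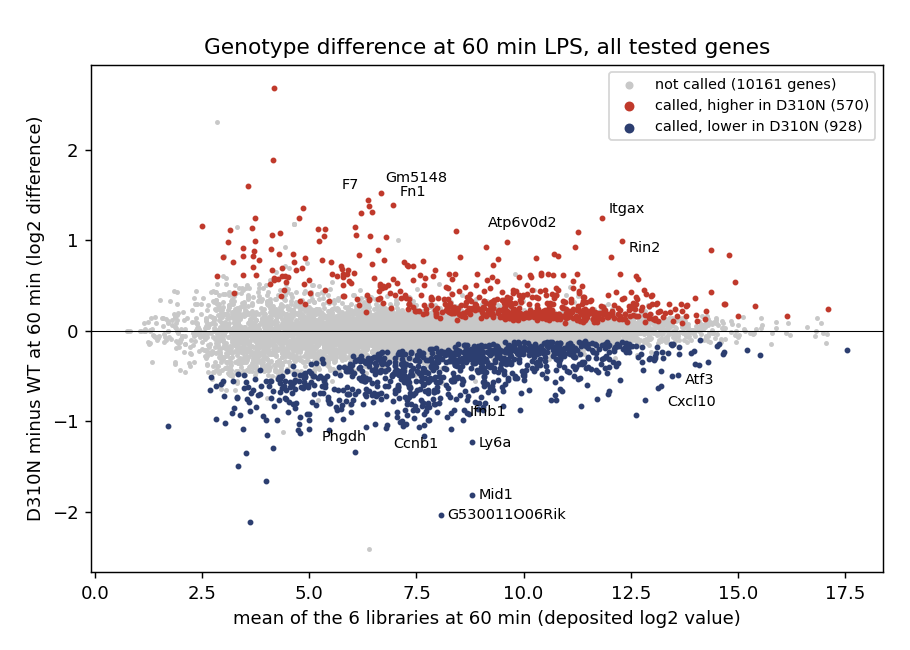
Log2 difference between D310N and WT at 60 min (vertical axis) against the mean of the 6 libraries (horizontal axis, deposited log2 value) for the 11659 tested genes. Grey points were not called, red points were called higher (570) and blue points called lower (928) in D310N; at mean values above 5, Itgax and Fn1 lie among the largest rises and Mid1 and G530011O06Rik among the largest falls.

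Most of what differed at 60 min also differed before LPS. Of the 1498 called genes, 901 were called in the same direction at 0 min, where 1251 genes (10.7%) were called, and 968 at 30 min, where 1422 (12.2%) were. The number was 1015 at 120 min (17.6% of all genes called there), 720 at 240 min (17.0%) and 620 at 360 min (16.3%), and 301 genes were called the same way at all 5 other times. A further 150 were called in that direction at 60 min and at none of the other times. The test of the change itself, the genotype difference at 60 min minus that at 0 min, called 8 genes (0.0686%), and that at 60 min minus that at 30 min called 6 (0.0515%). The difference at 120 min minus that at 60 min called 34 (0.292%). Without the library labelled WT 360 min replicate 1 these counts were 28, 10 and 96, so many genes lie near the threshold and are not shown to be alike at the 2 times.

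The mutation changes a codon, so the level of Tnip2 RNA (chromosome 5, 34496087 to 34513991, GRCm38) does not check the labels. Tnip2 had values of 9.16, 9.20 and 9.15 in D310N and 9.04, 9.16 and 9.08 in WT, a difference of 0.08 ± 0.06 (SE, limma, n = 3 per group, adjusted p = 0.514). The 2 genotypes overlapped. Of the 20 tested members of the ABIN, A20 and Tpl2 list, 2 were called higher and 0 lower by limma. Over all tested genes these shares were 4.89% and 7.96%. In the list 1 member was lower at an unadjusted p under 0.05, and the median difference was 0.01 against -0.00 over all tested genes. Ikbkg, which encodes the ubiquitin-binding subunit NEMO of the IKK complex, had 10.47, 10.39 and 10.50 in D310N against 10.14, 10.18 and 10.18 in WT, without overlap, a difference of 0.28 ± 0.06 (adjusted p = 6.1e-04). Map2k1, which encodes the ERK kinase MEK1 that Tpl2 phosphorylates, was higher by 0.13 ± 0.04 (adjusted p = 0.019), a call that was lost under 4 of 18 other settings, with adjusted p up to 0.0896: quantile normalisation, and leaving out D310N replicate 1, D310N replicate 3 or WT replicate 1. The level of Map3k8 differed by 0.02 ± 0.05, that of the sister adaptors Tnip1 and Tnip3 by -0.01 ± 0.06 and -0.01 ± 0.09, and that of the deubiquitinase gene Tnfaip3 by -0.05 ± 0.06, and none of these passed. Several of these near-zero differences change sign under other settings.

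NF-kB genes had a median difference of -0.00, the same as over all tested genes. Of 20 tested subunits, inhibitors and feedback regulators, 1 was called higher and 1 lower, against 4.89% and 7.96% of all tested genes. Nfkbid, an atypical nuclear inhibitor of NF-kB, reached 11.08, 10.79 and 10.97 in D310N and 10.60, 10.51 and 10.55 in WT, a difference of 0.40 ± 0.09 (adjusted p = 0.00282). Traf1, an adaptor of TNF receptors, was lower by 0.40 on the log2 scale (-0.40 ± 0.06, adjusted p = 7.27e-06), with 11.22, 11.39 and 11.29 in D310N against 11.76, 11.72 and 11.61 in WT. Neither overlapped between genotypes. Nfkbia, the inhibitor resynthesised at once after NF-kB enters the nucleus, differed by -0.02 ± 0.05 (adjusted p = 0.86) after an LPS response of 2.73 in D310N and 2.81 in WT. Of 23 tested Toll-like receptors and adaptors, 2 were called higher and 2 lower, against the same shares of all tested genes. Tlr13 (0.18 ± 0.04, adjusted p = 0.00446) and Tlr1 (0.22 ± 0.06, adjusted p = 0.0181) were higher. Tlr2 (-0.26 ± 0.06, adjusted p = 0.00235) and Tlr5, the flagellin receptor (-0.91 ± 0.21, adjusted p = 0.00341), were lower, while Tlr4 itself differed by -0.17 ± 0.06 (adjusted p = 0.0817). Tlr5 was weakly expressed, with means of 2.76 in D310N and 3.66 in WT, in the range where values are pulled together. The Tlr1 call was lost under 4 settings that each leave out 1 library, D310N replicate 1 or 3 or WT replicate 2 or 3 (adjusted p up to 0.109), and the Tlr13 call without WT replicate 1 (adjusted p = 0.0524).

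Interferon-beta transcript was lower in D310N at 60 min, and so were nearly all interferon-stimulated genes measured. Ifnb1 (chromosome 4, 88522025 to 88522774) stood at 8.0, 8.18 and 8.10 in D310N and at 9.12, 9.10 and 9.03 in WT, so that the highest D310N library lay below the lowest WT library. The difference was -0.99 ± 0.22 (adjusted p = 0.00163). The LPS response of Ifnb1, 60 min against 0 min, was 3.56 ± 0.22 in D310N and 4.43 ± 0.22 in WT, and the test of their difference (-0.88 ± 0.30) had an adjusted p of 1, so that a different response was not shown. At 0 min Ifnb1 differed by -0.11 ± 0.22 and at 120 min by -0.55 ± 0.22, neither of which passed by limma (adjusted p = 0.826 and 0.0773). These SEs draw on the spread of all groups, with the WT 360 min group and its library that stood apart. The SD of Ifnb1 was 0.92 in WT at 360 min and 0.05 to 0.12 in both genotypes at 0, 60 and 120 min. These tests therefore do not show that the genotypes responded alike. Of the other 19 members of the list of interferon induction and receptor signalling, Stat3 was called, and higher (0.24 ± 0.05, adjusted p = 0.00147).

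Of 40 interferon-stimulated genes, 37 were called lower at 60 min and 0 higher by limma (0 higher also at an unadjusted p under 0.05), against 7.96% lower among all tested genes. Their median difference was -0.42, with a range of -0.83 to -0.08. The smallest adjusted p-values were those of Ifit2 (-0.70 ± 0.07, adjusted p = 1.18e-08) and Ifit3 (-0.77 ± 0.07, adjusted p = 1.18e-08), both lower, which are neighbouring genes whose products bind viral RNA or each other. Ifit1, which recognises foreign RNA ends, had 11.27, 11.40 and 11.36 in D310N and 12.11, 12.12 and 12.04 in WT (-0.75 ± 0.08, adjusted p = 6.02e-08). Rsad2, which encodes the antiviral enzyme viperin, had 12.83, 12.95 and 12.94 in D310N and 13.56, 13.54 and 13.46 in WT (-0.61 ± 0.07, adjusted p = 1.5e-07). In all 4 genes every D310N library lay below every WT library. Rtp4 (-0.64 ± 0.06) and Usp18, a negative regulator of the interferon receptor (-0.54 ± 0.06), followed. Named here after their values were seen, Irf7, the factor that amplifies interferon production, was lower by the most in the list (-0.83 ± 0.11, adjusted p = 3.03e-06), and the 3 members that did not pass were Ifih1 (-0.08 ± 0.06), Samd9l (-0.14 ± 0.07) and Slfn8 (-0.14 ± 0.05).

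The list was lower before LPS too, with 34 members called lower at 0 min (median -0.30), 38 at 30 min (median -0.44) and 37 at 120 min (median -0.41), against 7.09%, 7.78% and 9.72% of all tested genes at those times. By 60 min LPS had raised 13 of the 40 members in D310N and 20 in WT at an adjusted p under 0.05, against 21.3% and 20.1% of all tested genes, and the median response was 0.05 in D310N and 0.17 in WT. Ifit1 had an LPS response of 0.75 ± 0.08 in D310N and 1.1 ± 0.08 in WT, and its genotype difference was not shown to change between 0 and 60 min (-0.35 ± 0.11, adjusted p = 0.821). The antigen presentation and interferon-gamma type list was lower in the same samples, with 17 of 25 members called lower, against 7.96% of all tested genes, and 0 higher (0 also at an unadjusted p under 0.05), and a median of -0.21. Its leading members were the immunity-related GTPases Irgm2 (-0.52 ± 0.08), Irgm1 (-0.46 ± 0.06) and Igtp (-0.36 ± 0.07) and the guanylate-binding proteins Gbp3 (-0.46 ± 0.05) and Gbp7 (-0.35 ± 0.07), which act against intracellular microbes, and the peptide transporter Tap1 (-0.25 ± 0.04). Irgm2 and Igtp overlap on chromosome 11 and their reads cannot be fully told apart. Ly6 and Schlafen genes, several of them interferon-responsive, included 5 called lower of 9 tested, against the same 7.96%, and 0 higher (0 also at an unadjusted p under 0.05). Ly6a, the stem cell antigen Sca-1, had 7.82, 8.44 and 8.29 in D310N and 9.42, 9.55 and 9.28 in WT (-1.23 ± 0.16, adjusted p = 2.12e-06), without overlap, and Ly6e differed by -0.77 ± 0.08 (adjusted p = 5.05e-08).

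The promoter stretches of 4 of these transcripts are shown because they carry the letters by which interferon and NF-kB are known to act, and because the transcripts differ at 60 min. They were taken from RefSeq windows of 300 bases around transcript starts on GRCm38.p6, of which 50 lie past the start, found for 9358 of the 11659 tested genes (11904 windows), and are printed 5′ to 3′ on the gene's strand, upstream of the start. Capitals mark the core of the interferon-stimulated response element (GAAA, any 2 bases, GAAA) and a kB motif (GGGA, any 2 bases, TTCC), searched on both strands; the matches did not overlap.
Ifit1, chr19:34640760-34640838 (+): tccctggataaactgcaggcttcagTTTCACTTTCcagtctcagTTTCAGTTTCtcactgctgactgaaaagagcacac
Ifit3, chr19:34583348-34583441 (+): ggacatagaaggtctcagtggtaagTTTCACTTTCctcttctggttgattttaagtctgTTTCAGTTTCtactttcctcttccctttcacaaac
Cxcl10, chr5:92349014-92349127 (-): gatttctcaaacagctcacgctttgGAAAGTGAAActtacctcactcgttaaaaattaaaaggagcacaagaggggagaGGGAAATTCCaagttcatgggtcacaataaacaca
Ifnb1, chr4:88522876-88522935 (-): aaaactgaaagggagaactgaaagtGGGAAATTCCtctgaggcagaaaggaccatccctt
Ifit1 and Ifit3 each hold 2 response element cores and Cxcl10 holds 1 core and 1 kB motif. In Ifnb1 the kB motif is marked. The response element core occurred in the windows of 15 of 29 interferon-stimulated genes with a window (51.7%) and of 380 of 9358 tested genes (4.06%; 3.36% of windows). Among genes called lower at 60 min it occurred in 11.1%, and among genes called higher in 2.29%. These are descriptions of letters in a window, not of binding.

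Chemokine transcripts formed the next group. Of 19 tested chemokines 9 were called lower and 1 higher, against 7.96% and 4.89% of all tested genes, with a median of -0.20, and the median LPS response was 1.64 in D310N and 1.99 in WT. Cxcl10, a T cell attractant that interferon induces, had 12.83, 12.83 and 12.83 in D310N and 13.51, 13.45 and 13.42 in WT (-0.63 ± 0.08, adjusted p = 5.91e-07). The monocyte attractant Ccl7 had 12.99, 12.95 and 12.98 in D310N and 13.42, 13.41 and 13.42 in WT (-0.44 ± 0.05, adjusted p = 5.82e-07). The libraries of each genotype lay within 0.1 of each other in these 2 genes, well apart from the other genotype.

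Ccl2 (-0.37 ± 0.07) and Ccl12 (-0.59 ± 0.08), which attract monocytes through the receptor Ccr2, lie beside Ccl7 on chromosome 11 and were also lower, as was Cxcl11 (-0.52 ± 0.07) beside Cxcl10 on chromosome 5. The other 4 called lower, named after their values were seen, were Ccl3 (-0.38 ± 0.11), Ccl4 (-0.35 ± 0.09), Ccl17 (-0.63 ± 0.13) and Ccl22 (-0.30 ± 0.08). The calls of Ccl3 and Ccl22 were lost under 4 and 3 settings, each leaving out 1 of the libraries (adjusted p up to 0.0939 and 0.0657): D310N replicates 2 and 3 and WT replicates 1 and 3 for Ccl3, and D310N replicates 1 and 3 and WT replicate 1 for Ccl22. Ccl6 was higher, at 13.07, 12.73 and 13.05 in D310N and 12.40, 12.38 and 12.36 in WT (0.57 ± 0.11, adjusted p = 3.09e-04), and it had differed by 0.66 at 0 min. At 0 min 2 chemokines were called higher and 0 lower by limma (3.64% and 7.09% of all tested genes), at 30 min 2 higher and 3 lower (4.42% and 7.78%). In the main fit the limma test of the change from 0 min passed for Ccl7 alone in the list. For Cxcl10 it gave -0.51 ± 0.11 (adjusted p = 0.059). That change passed under 5 of 24 other settings, among them the fit without the library labelled WT 360 min replicate 1. Its value was -0.54 to -0.48 under all of them. The kB motif occurred in 4 of 12 chemokine windows (33.3%) and in 169 of 9358 tested genes (1.81%; 1.55% of windows). These 4 were Cxcl10 and the neutrophil attractants Cxcl1, Cxcl2 and Cxcl3, and these attractants did not pass, with differences of 0.22 ± 0.24, -0.06 ± 0.19 and -0.03 ± 0.20.

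Among 18 early inflammatory cytokines, 4 were called lower, against 7.96% of all tested genes, and 0 higher by limma, with 2 higher at an unadjusted p under 0.05. The median was -0.25. Csf1, the macrophage growth factor, had 11.87, 12.10 and 11.87 in D310N and 12.35, 12.32 and 12.35 in WT (-0.39 ± 0.08, adjusted p = 0.00139). Ebi3, a subunit of IL-27, differed by -0.38 ± 0.09 (adjusted p = 0.00285), Osm by -0.42 ± 0.11 (adjusted p = 0.00648) and Il12b, the p40 subunit shared by IL-12 and IL-23, by -0.36 ± 0.10 (adjusted p = 0.0128). The last 2 calls were lost under some omissions of 1 library. Osm was lost without D310N replicate 3 or WT replicate 2 (limma adjusted p up to 0.0636) and Il12b without WT replicate 1 (adjusted p = 0.0659). Their differences stayed at -0.51 to -0.34 for Osm and -0.40 to -0.33 for Il12b under all other settings. Without the library labelled WT 360 min replicate 1 the list had 8 members called lower. The major early cytokines were close: Tnf averaged 15.55 ± 0.07 in D310N and 15.53 ± 0.04 in WT (SD), a difference of 0.03 ± 0.12, and Il1b 14.95 ± 0.03 and 14.96 ± 0.01, a difference of -0.00 ± 0.07. Il6 averaged 7.64 ± 0.04 in D310N and 7.98 ± 0.08 in WT and did not pass (-0.34 ± 0.14, adjusted p = 0.124), though it did under 3 other settings.

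**Figure D2:**
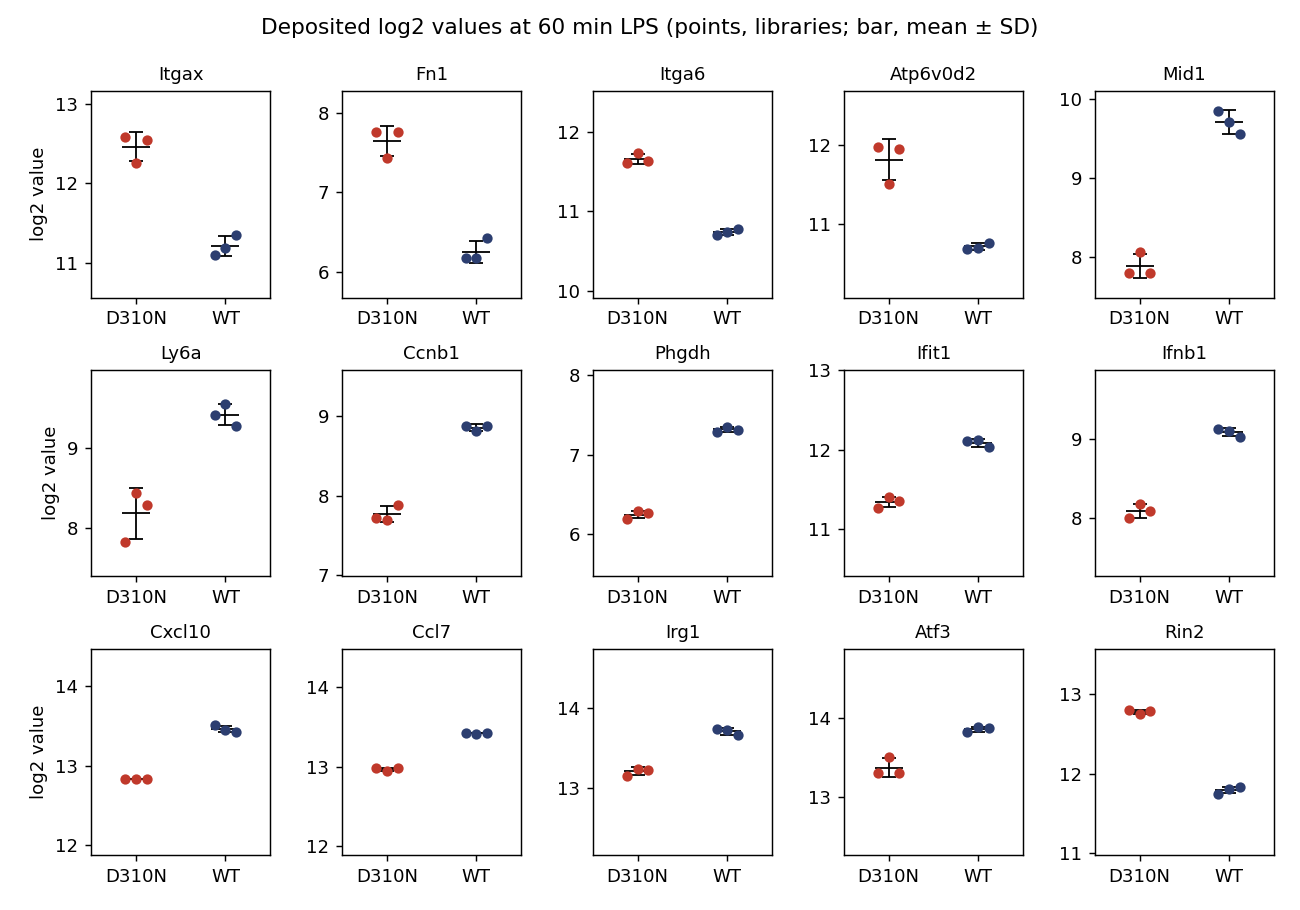
Deposited log2 values of 15 genes at 60 min in the 3 D310N libraries (left, red) and the 3 WT libraries (right, blue), with the mean ± SD in black; each panel spans the same 2.6 log2 units. In every panel the genotypes do not overlap; Itgax, Fn1, Itga6, Atp6v0d2 and Rin2 are higher and the other 10 lower in D310N.

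In the main fit 8 genes were called for a genotype difference that changed between 0 and 60 min, including transcripts on which LPS acts early. The count was 28 on the libraries of this contrast alone and 67 with library weights. Genes not called are therefore not shown to be unchanged. Rin2, a Rab5 guanine nucleotide exchange factor of the endocytic route, had 12.80, 12.76 and 12.79 in D310N and 11.75, 11.81 and 11.83 in WT at 60 min, a difference of 0.99 ± 0.04 (adjusted p = 1.32e-16). Its groups were a full log2 unit apart with SDs of 0.02 and 0.04. The difference was 0.40 ± 0.04 at 0 min, 0.41 ± 0.04 at 30 min and 0.34 ± 0.04 at 120 min, and the 60 min value exceeded that at 0 min by 0.59 ± 0.06 (adjusted p = 5.5e-07) and that at 30 min by 0.58 ± 0.06 (adjusted p = 1.66e-06). Between 0 and 60 min Rin2 rose by 0.42 ± 0.04 in D310N and fell by 0.17 on the log2 scale in WT (-0.17 ± 0.04, adjusted p = 0.00214). At 240 min the genotype difference did not pass, with 14.01 ± 0.04 in D310N and 14.13 ± 0.04 in WT (SD), a difference of -0.12 ± 0.04 (adjusted p = 0.0569).

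Atf3, a stress and LPS-induced repressor of inflammatory transcription, showed the reverse. It stood at 13.30, 13.50 and 13.30 in D310N and 13.82, 13.88 and 13.87 in WT (-0.49 ± 0.04, adjusted p = 1.51e-09), without overlap. At 0 min it had been higher in D310N (0.15 ± 0.04, adjusted p = 0.0166), and at 30 min it did not pass (-0.11 ± 0.04). The change was -0.64 ± 0.06 from 0 min (adjusted p = 9.79e-08) and -0.38 ± 0.06 from 30 min (adjusted p = 0.00294). Irg1, which encodes the enzyme that makes itaconate, had 13.15, 13.24 and 13.22 in D310N and 13.74, 13.73 and 13.67 in WT (-0.50 ± 0.04, adjusted p = 5.88e-11), also without overlap, from similar levels at 0 min (-0.03 ± 0.04). Its LPS response was 2.58 ± 0.04 in D310N and 3.06 ± 0.04 in WT, which differed by -0.47 ± 0.05 (adjusted p = 2.72e-06), and by 120 min the genotype difference had shrunk by 0.30 ± 0.05 to -0.21 ± 0.04. The response of Ccl7 was 1.92 ± 0.05 in D310N and 2.36 ± 0.05 in WT (difference -0.44 ± 0.08, adjusted p = 0.00703), and that of Rgs1, a regulator of G protein signalling, 0.58 ± 0.06 and 1.00 ± 0.06 (difference -0.43 ± 0.08, adjusted p = 0.014).

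E2f8, an atypical E2F repressor, was lower in D310N at 0 min (-0.64 ± 0.08) and not called at 60 min (-0.05 ± 0.08), a change of 0.59 ± 0.11 (adjusted p = 0.0174). Egr2 was higher in D310N by 1.07 ± 0.10 at 0 min and by 0.37 ± 0.10 at 60 min, and this change only just passed (adjusted p = 0.0471) and was lost under 15 other settings. The change was lost under 8 other settings for E2f8, 7 for Rgs1 and 9 for Gm5148, each leaving out 1 library, with adjusted p up to 0.0897, 0.0787 and 0.138. It passed under all settings tried for Rin2, Atf3, Irg1 and Ccl7.

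**Figure D3:**
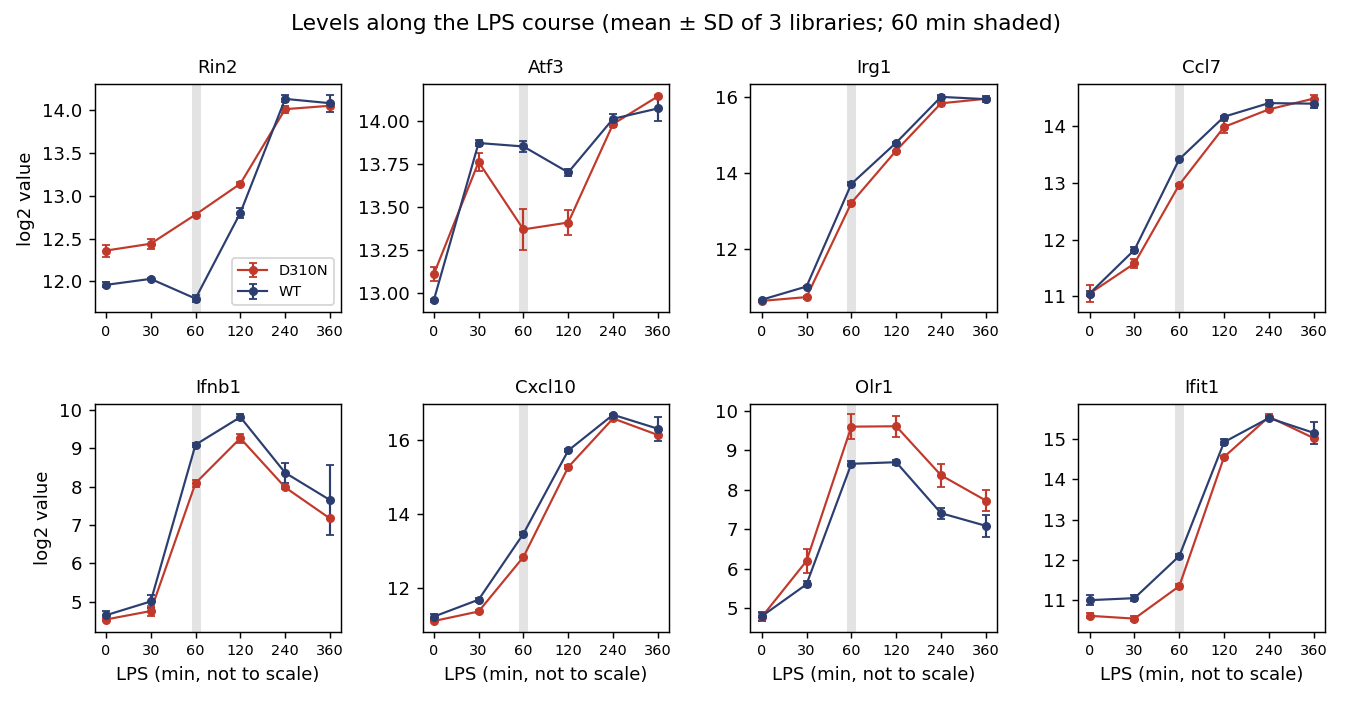
Mean log2 value ± SD of 3 libraries in D310N (red) and WT (blue) along the LPS course (0 to 360 min, axis not to scale) for 8 genes, with 60 min shaded. The Rin2 curves are farthest apart at 60 min, those of Atf3, Irg1 and Ccl7 are close at 0 min and separate by 60 min, and Ifnb1 and Cxcl10 rise to lower levels in D310N at 60 min.

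Of 35 tested members of the immediate early and ERK-dependent list, 3 were called higher and 1, Atf3, lower, which together is close to the 12.8% called over all tested genes, and the median was -0.05. The lower count was 9 when the libraries of the contrast were fitted alone and 9 with library weights. The median LPS response was 1.47 in D310N and 1.95 in WT. Klf10, a TGF-beta-inducible factor, was higher by 0.44 ± 0.10 (adjusted p = 0.00369), with 9.34, 9.20 and 9.33 in D310N against 8.88, 8.93 and 8.76 in WT. Egr2, a zinc finger factor of the early growth response family, had 11.61, 11.55 and 11.62 in D310N and 11.29, 11.23 and 11.15 in WT (adjusted p = 0.0123), and lost its call without WT replicate 3 (adjusted p = 0.0649). Fosl1, an AP-1 subunit, was higher by 0.55 ± 0.18 (adjusted p = 0.0348) and lost its call under 6 settings, 5 of which left out any library but D310N replicate 2 (adjusted p up to 0.218). Srf (-0.26 ± 0.10), Klf6 (-0.10 ± 0.04) and Junb (-0.02 ± 0.04) did not pass. Without the library labelled WT 360 min replicate 1, 4 members were called lower.

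Genes that LPS had raised by 60 min were called more often than the rest, though this was not tested. A size of at least 1 was called for 603 genes (5.17%) on average over the genotypes. Of the 411 raised, 90 were called between genotypes (21.9%), 38 higher (9.25%) and 52 lower (12.7%). Of the 192 lowered, 9 were called (4.69%), 3 higher (1.56%) and 6 lower (3.12%). Of the other 11056 genes 1399 were called (12.7%), 529 higher (4.78%) and 870 lower (7.87%). Chosen instead by their WT response, which shares the WT 60 min libraries with the genotype difference, the largest rises were in Olr1, Lrrc32 and Rgs16; by LPS itself 38.5% of tested genes were called in D310N and 37.2% in WT. Olr1, a scavenger receptor for oxidised lipoprotein, had 9.79, 9.23 and 9.77 in D310N and 8.68, 8.60 and 8.71 in WT (0.93 ± 0.16, adjusted p = 1.17e-04) and did not differ at 0 min beyond its error (-0.02 ± 0.16). Lrrc32, which tethers latent TGF-beta at the cell surface, was higher by 0.81 ± 0.11, and by the same 0.81 at 0 min. Rgs16 was higher by 0.73 ± 0.16, the Notch ligand Jag1 by 0.63 ± 0.10 and Mir22hg, the host transcript of miR-22, by 0.61 ± 0.13. Their group means already lay apart at 0 min. These were 7.96 in D310N and 7.33 in WT for Rgs16, 8.81 and 7.77 for Jag1, and 9.16 and 8.65 for Mir22hg. The gap of Jag1 was wider at 0 min than at 60 min, a change that was not called. Falls beside Ifnb1 included Gprc5a (-1.08 ± 0.21), Cldn23, a claudin (-0.93 ± 0.19), Tnn (-0.83 ± 0.20), Pxdc1 (-0.80 ± 0.16), Ifit1 and Ch25h. Gprc5a, Cldn23 and Tnn had means under 5 in both genotypes, in the range where values are pulled together. Ch25h, which makes the interferon-induced antiviral sterol 25-hydroxycholesterol, had 8.53, 8.75 and 8.63 in D310N and 9.41, 9.34 and 9.34 in WT (-0.73 ± 0.07, adjusted p = 3.16e-08), without overlap.

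Of the lists examined, the most uniform at 60 min was that of G2/M and mitosis, with 25 of 25 members called lower (median -0.84, range -1.16 to -0.37). All 25 were called lower at 0, 30 and 120 min, with medians of -0.89, -0.87 and -0.72. Of all tested genes, 7.96% were called lower at 60 min and 7.09%, 7.78% and 9.72% at 0, 30 and 120 min. Ccnb1, the cyclin that starts mitosis, had 7.72, 7.70 and 7.88 in D310N and 8.88, 8.81 and 8.88 in WT (-1.09 ± 0.09, adjusted p = 3.98e-10). Ube2c, the ubiquitin-conjugating enzyme of the anaphase-promoting complex, had 7.24, 6.79 and 7.26 in D310N and 8.36, 8.33 and 8.08 in WT (-1.16 ± 0.13, adjusted p = 9.01e-08). Cdc20, which activates that complex, had 6.87, 6.60 and 6.78 in D310N and 7.83, 7.79 and 7.71 in WT (-1.03 ± 0.11, adjusted p = 1.12e-07). No D310N library of these 3 genes reached a WT value. The kinesin Kif18b (-1.03 ± 0.12), Kif14 (-1.06 ± 0.13), the second mitotic cyclin Ccnb2 (-1.04 ± 0.14), Fam64a (-1.04 ± 0.15), Cdkn3 (-1.1 ± 0.17) and Racgap1 (-0.84 ± 0.11) were lower to a similar degree. Mki67, the proliferation antigen, was the least lowered member (-0.37 ± 0.12, adjusted p = 0.0417) and lost its call under 8 settings, including each omission of 1 of the 6 libraries (adjusted p up to 0.158).

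Promoter stretches of 2 of these genes are shown since the CHR motif, TTTGAA, and the CCAAT box, CCAAT, are known to mark genes of late cell cycle phases. Both come from the same RefSeq windows, end at the base before the transcript start, and carry both motifs in capitals on either strand.
Cdc20, chr4:118437344-118437421 (-): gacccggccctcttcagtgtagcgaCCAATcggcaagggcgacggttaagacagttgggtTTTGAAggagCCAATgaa
Ube2c, chr2:164769739-164769928 (+): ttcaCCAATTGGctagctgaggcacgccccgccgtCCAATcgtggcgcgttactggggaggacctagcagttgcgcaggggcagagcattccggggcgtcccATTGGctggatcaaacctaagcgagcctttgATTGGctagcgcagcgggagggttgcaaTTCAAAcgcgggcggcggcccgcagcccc
The CHR letters begin 18 bases before the start in Cdc20 and 29 bases before it in Ube2c, where the first CCAAT overlaps another on the opposite strand. TTTGAA occurred in the windows of 16 of 22 list members with a window (72.7%) and of 1354 of 9358 tested genes (14.5%; 12.2% of windows). CCAAT occurred in 20 of the 22 (90.9%) and in 43.4% of tested genes (38% of windows). Among all genes called lower TTTGAA occurred in 24%, and among those called higher in 13.8%.

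Of 25 tested G1/S and DNA replication genes, 8 were called lower, against 7.96% of all tested genes, and 0 higher (0 also at an unadjusted p under 0.05), with a median of -0.23. Without the library labelled WT 360 min replicate 1 the count was 17. The ribonucleotide reductase subunit Rrm2 (-0.67 ± 0.10), thymidine kinase Tk1 (-0.67 ± 0.11), E2f2 (-0.62 ± 0.11) and the cyclin Ccne2 (-0.57 ± 0.11) differed most among those named. The list of serine synthesis, one-carbon metabolism and ATF4 targets had 11 of 22 members called lower and 1 higher, against 7.96% and 4.89% over all tested genes, with a median of -0.29. Phgdh, which catalyses the first step of serine synthesis, had 6.19, 6.29 and 6.27 in D310N and 7.29, 7.35 and 7.31 in WT (-1.07 ± 0.11, adjusted p = 5.8e-08), with a gap of a full log2 unit between the genotypes. Mthfd2 (-0.37 ± 0.06), the mitochondrial folate enzyme, asparagine synthetase Asns (-0.53 ± 0.10) and the stress-induced Trib3 (-0.81 ± 0.15) were lower too. Chac1 (-1.29 ± 0.21) and Aldh1l2 (-1.02 ± 0.17) were also called, at means under 5. The higher member, Slc7a11, the cystine transporter (0.50 ± 0.16, adjusted p = 0.0308, named after its value was seen), lost its call without D310N replicate 1 or 3 or WT replicate 1 or 2 (adjusted p up to 0.165).

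Of 32 genes of adhesion, matrix and coagulation, 13 were called higher in D310N and 3 lower, against 4.89% and 7.96% of all tested genes, and 16 did not pass; the median was 0.17. Itgax, the integrin chain CD11c, had 12.58, 12.26 and 12.54 in D310N and 11.09, 11.18 and 11.35 in WT (1.25 ± 0.13, adjusted p = 6.63e-08). Fn1, fibronectin, had 7.76, 7.43 and 7.76 in D310N and 6.17, 6.17 and 6.42 in WT (1.39 ± 0.16, adjusted p = 3.2e-07). Itga6, a laminin-binding integrin chain, had 11.61, 11.73 and 11.63 in D310N and 10.70, 10.74 and 10.78 in WT (0.92 ± 0.07, adjusted p = 2.92e-11). The genotypes were separate in each, with D310N replicate 2 the lowest of its group in Itgax and Fn1 and the highest in Itga6. The coagulation protease gene F7 (1.44 ± 0.26) and the gelatinase Mmp9 (1.06 ± 0.22) had the other large rises. The metalloproteinase inhibitor Timp1 (0.84 ± 0.13) and Itgb2, the common chain of leukocyte integrins (0.43 ± 0.06), rose as well, whereas the membrane metalloproteinase Mmp14 was lower (-0.54 ± 0.08, adjusted p = 6.34e-06). The differences of Itgax, Fn1, Itga6 and F7 were of similar size at 0 min, at 1.13, 1.27, 0.86 and 1.31. Beyond the lists, Ptprn (1.31 ± 0.20), Ppp1r1a (1.15 ± 0.19) and the glypican Gpc1 (1.1 ± 0.24) were among the largest rises, and the carbonyl reductase Cbr2 (-1.06 ± 0.14), Depdc7 (-1.34 ± 0.16) and Ldlrad3 (-1.05 ± 0.14) among the largest falls.

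Of 22 lysosome and osteoclast-type genes 4 were called higher and 5 lower, against 4.89% and 7.96% of all tested genes. Atp6v0d2, which encodes part of the proton pump that acidifies phagosomes and osteoclast pits, had 11.97, 11.50 and 11.95 in D310N and 10.69, 10.70 and 10.76 in WT (1.09 ± 0.14, adjusted p = 2.29e-06), and Dcstamp, which cell fusion needs, had 10.15, 10.01 and 10.17 in D310N and 9.08, 9.19 and 9.12 in WT (0.98 ± 0.10, adjusted p = 6.78e-08). Neither overlapped. Mitf, a factor that drives lysosomal and osteoclast genes (0.47 ± 0.08), and Ctsl (0.29 ± 0.07) were higher, and Hexa (-0.25 ± 0.05) and Ctsb (-0.21 ± 0.05) lower; quantile normalisation ended the Ctsb call (adjusted p = 0.419). Of 20 glycolytic genes 10 were called higher and 1 lower (median 0.18), against the same 4.89% and 7.96%, with 9 that did not pass. The higher ones included Gpi1 (0.38 ± 0.05), Pfkl (0.41 ± 0.07), Eno1 (0.40 ± 0.07), Pgk1 (0.27 ± 0.05), Pgam1 (0.26 ± 0.06) and Ldha (0.21 ± 0.04). The lower member, Aldoc (-0.41 ± 0.13, adjusted p = 0.0399, named after its value was seen), lost its call under 6 settings, 5 of which left out any library but D310N replicate 2 (adjusted p up to 0.262). Of 17 myeloid C-type lectin receptors 3 were called higher and 7 lower, against the same background. Clec7a, the beta-glucan receptor Dectin-1, was higher (0.63 ± 0.09), as was Clec4a2 (0.40 ± 0.09), while Clec4n, which encodes Dectin-2 (-0.90 ± 0.17), Clec10a (-0.78 ± 0.13), Clec4a1 (-0.41 ± 0.07) and Clec4e, or Mincle (-0.29 ± 0.06), were lower. Several of these lectins lie beside each other on chromosome 6 and are close in sequence, so reads may be shared between them.

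**Figure D4:**
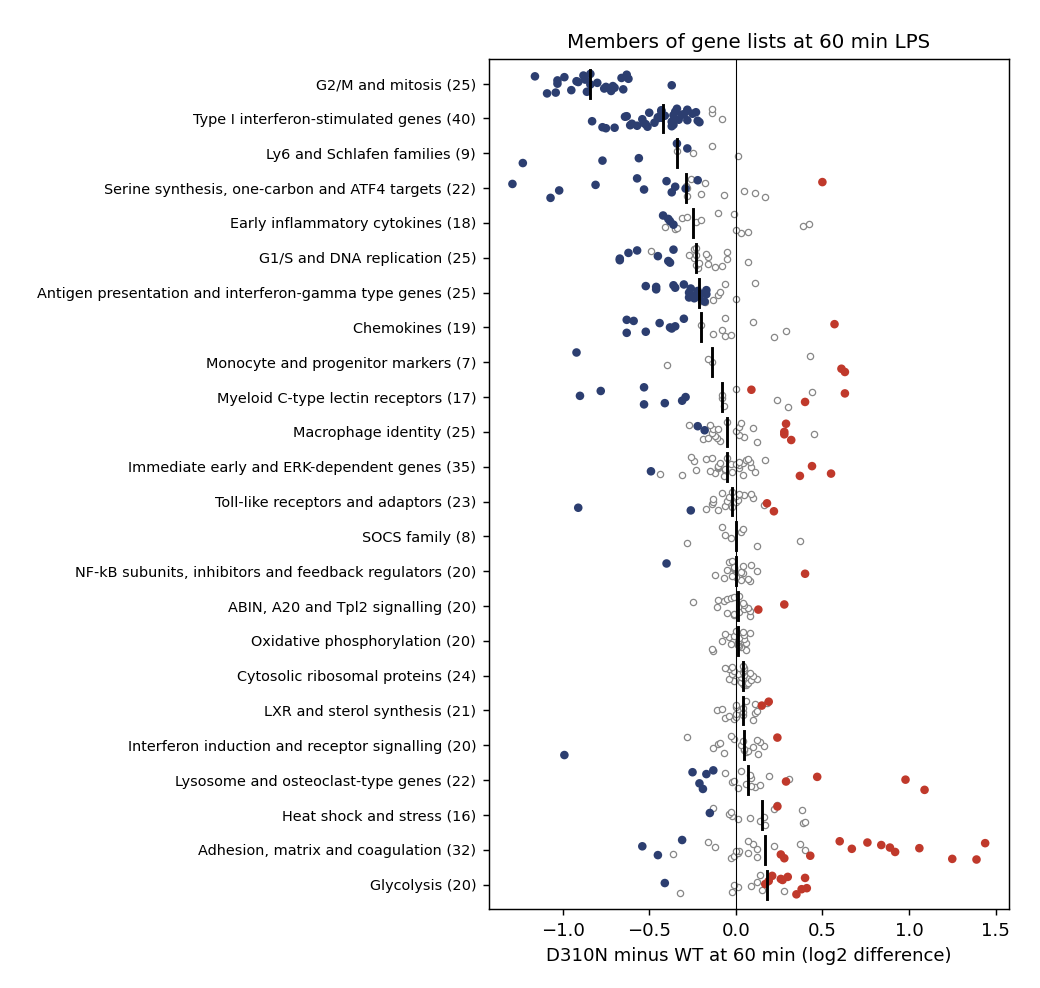
Log2 difference between D310N and WT at 60 min for each tested member of 24 gene lists (number tested in parentheses), with filled points called higher (red) or lower (blue), open points not called and a black bar at the median. The G2/M list (median -0.84) and the interferon-stimulated list (median -0.42) lie wholly below 0, and the adhesion and glycolysis lists have medians of 0.17 and 0.18.

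Of 25 macrophage identity genes 4 were called higher and 2 lower, against 4.89% and 7.96% of all tested genes, and the median was -0.05. Itgam, the integrin chain CD11b (0.28 ± 0.04), and the scavenger receptor Msr1 (0.29 ± 0.07) were higher, and the receptor tyrosine kinase Axl was lower (-0.22 ± 0.05). The other 3 calls lay near the threshold and were lost under omissions of 1 library. Cebpa (0.28 ± 0.09) lost its call when any 1 of the 6 libraries was left out, with limma adjusted p up to 0.107. Its difference stayed at 0.27 to 0.31 under the 18 other settings. Cx3cr1 (0.32 ± 0.10) and C1qa (-0.18 ± 0.06) lost theirs under 6 settings each, with adjusted p up to 0.207 and 0.222, among them the omission of D310N replicate 2 or 3 or WT replicate 1 or 2, and for Cx3cr1 also WT replicate 3. Among markers of other cells, the monocyte and progenitor list had 2 of 7 members called higher and 1 lower, against the same background. Its median was -0.14, with 4 of the 7 members below 0. The summed linear level of the list was 2030 to 2160 in D310N and 1310 to 1530 in WT. Most of this sum came from Ccr2, so it does not stand for the list. Ccr2, the monocyte chemokine receptor, was higher by 0.63 ± 0.12 (adjusted p = 3.71e-04), with 10.90, 10.83 and 10.95 in D310N and 10.34, 10.37 and 10.09 in WT, and Kit was lower by 0.92 on the log2 scale (-0.92 ± 0.21, adjusted p = 0.00222). Mmp8 was the called member among 4 tested neutrophil markers (0.67 ± 0.11), while Ly6g, Mpo and Elane did not reach the filter. The summed level of the 10 neutrophil markers of the cell check was 36.6 to 40.7 in D310N and 30 to 34.5 in WT. The part of these cells in the differences above was not tested. T and NK, B, dendritic, stromal and erythroid lists had 0 members called by limma, with 2, 1, 0, 1 and 1 members at an unadjusted p under 0.05.

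Lists for basic cell functions were close to 0, apart from heat shock and stress genes. None of 20 oxidative phosphorylation genes, 24 cytosolic ribosomal protein genes and 8 SOCS genes was called by limma, with 1, 3 and 1 at an unadjusted p under 0.05, and their medians were 0.01, 0.04 and 0.00. LXR and sterol synthesis genes had 2 of 21 called and heat shock and stress genes 2 of 16, with medians of 0.04 and 0.15. Over all tested genes 12.8% were called. At an unadjusted p under 0.05 by limma, 3 LXR and sterol genes were higher and 0 lower. Of the heat shock and stress genes, 7 were higher and 1 lower at that level.

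The pair with the largest falls under the naming rule lay on the X chromosome. Mid1, a microtubule-associated ubiquitin ligase, had 7.81, 8.07 and 7.80 in D310N and 9.84, 9.71 and 9.55 in WT (-1.81 ± 0.12, adjusted p = 1.06e-11). G530011O06Rik, a noncoding transcript, had 7.10, 7.09 and 6.98 in D310N and 9.07, 9.17 and 9.01 in WT (-2.03 ± 0.10, adjusted p = 7.38e-16). No library of either genotype came within a log2 unit of the other. G530011O06Rik (169975043 to 169978917) lies within the span of Mid1 (169685199 to 170005736), the labels do not say whether strand was used in counting, and their reads cannot be told apart. At 0 min the differences were -1.84 and -2.03, and neither gene responded to LPS at 60 min beyond 0.04 in size.

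Of 54 tested processed pseudogenes, which are intronless copies of messenger RNAs, 14 were called higher and 5 lower (25.9% and 9.26%), against 4.73% and 8.02% of 11243 protein-coding genes. At 0 and 30 min 1 of the 54 was called higher (1.85%, against 3.64% and 4.42% of all tested genes). At 120 min 15 were (27.8%, against 7.93%), at 240 min 3 (5.56%, against 6.97%) and at 360 min 5 (9.26%, against 6.80%). The median over all 54 was 0.04 at 60 min and 0.17 at 120 min. The 14 called higher, which were chosen by their 60 min values, had a median difference of 0.17 at 0 min, -0.05 at 30 min, 1.05 at 60 min, 1.07 at 120 min, 0.11 at 240 min and 0.13 at 360 min. The loci named next were chosen after their values were seen. Gm6654 had 5.42, 4.57 and 5.30 in D310N and 3.02, 3.10 and 3.51 in WT (1.88 ± 0.25, adjusted p = 3e-06), without overlap, with group means of 3.62 in D310N and 3.06 in WT at 0 min and of 4.12 in D310N and 4.13 in WT at 240 min. Gm12657 had 5.97, 5.95 and 5.84 in D310N and 4.79, 4.86 and 4.75 in WT (1.12 ± 0.16, adjusted p = 1.24e-05), with group means of 4.73 in D310N and 4.53 in WT at 0 min and of 5.33 in D310N and 5.34 in WT at 240 min. The largest rise under the naming rule, Gm5148, which is annotated as protein-coding, followed the same course, with 7.39, 7.46 and 7.42 in D310N and 5.62, 6.19 and 5.91 in WT at 60 min (1.52 ± 0.16). It averaged 5.86 ± 0.09 in D310N and 5.54 ± 0.30 in WT (SD) at 0 min, and 6.79 ± 0.05 in D310N and 6.84 ± 0.13 in WT at 240 min. Such copies can share reads with their parent genes, and how shared reads were assigned here is not stated. The labels do not say whether the libraries of the different times and genotypes were prepared or sequenced together, and the part of either in these values was not tested.

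**Figure D5:**
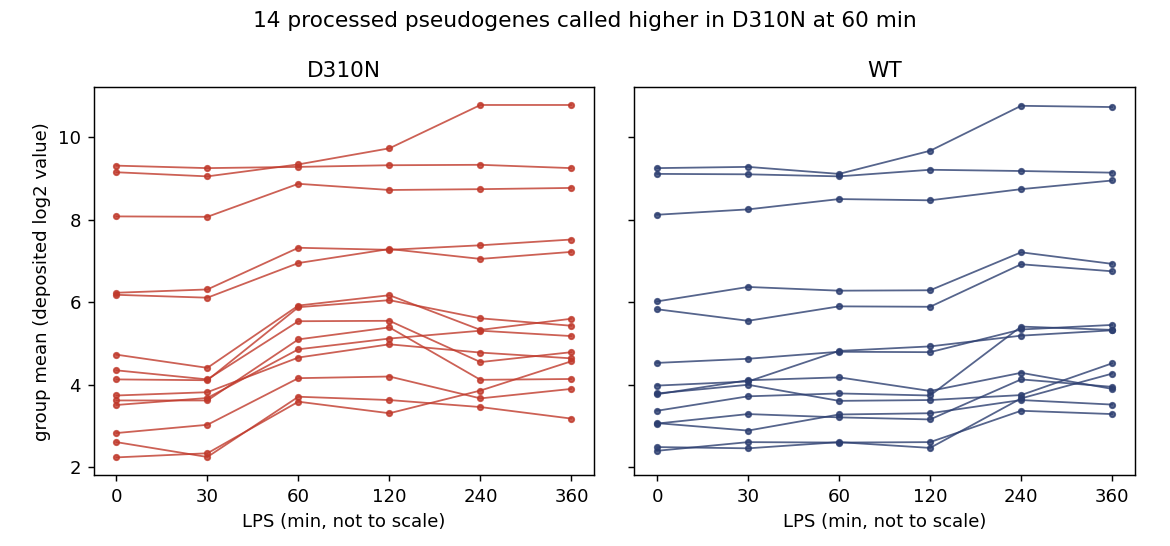
Group mean of the deposited log2 value along the LPS course (axis not to scale) for the 14 processed pseudogenes called higher in D310N at 60 min, with D310N on the left and WT on the right and 1 line per locus. Most lines step up between 30 and 60 min in D310N and between 120 and 240 min in WT; the median genotype difference is 1.05 at 60 min and 0.11 at 240 min.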

How the data were processed

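For the authors' steps before deposit, the submitters' processing notes name RSEM 1.2.31, STAR 2.5.2a, DESeq2 1.10.1 and the mouse build mm10. The authors deposited normalised log2 values for 16439 genes in 36 libraries, from -4.14 to 19.3, with no counts; 23 names turned into dates were left out. A pseudocount had been planned only if the values turned out linear. They were log2 values and were used as deposited, with no pseudocount. Positions are from GENCODE M21 on GRCm38, matched by symbol for 99.4% of tested genes (300 by an older symbol).

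limma 3.58.1 in R 4.3.3 fitted 1 mean per group over all 36 libraries (24 residual degrees of freedom, intensity trend), with two-sided p-values adjusted by Benjamini-Hochberg over all tested genes within each contrast. Differences are D310N minus WT, or 60 min minus 0 min for LPS responses, ± SE. Tested on simulated data for this contrast with 11659 genes, the model recovered 32%, 84%, 100% and 100% of 50 genes changed by 0.25, 0.5, 1 and 2, with 9 false calls among 11459 unchanged genes. The simulated noise was normal, independent between libraries and had each gene's own spread. Effects shared between genes or libraries were not simulated, so this does not measure the false calls of the real contrast.

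The comparison, lists and rules were chosen with earlier results of these data known. Named genes were Tnip2 and called members of its list; the 15 largest called rises and falls without overlap, with a mean of 50 or more in the higher group as a linear value (log2 of 5.64); the 8 largest called rises and falls among genes raised by LPS in WT by at least 1; the 10 smallest p-values for the change from 0 min; up to 6 members per list, called ones first; sex-linked genes, of which 0 of 4 were called by limma (0 at an unadjusted p under 0.05); and members of 3 chromosome windows. Not all of them are described. Promoter motifs were searched in RefSeq windows that reach 50 bases past the start. Alternatives changed the scaling, filter, pseudocount, spread, library weights, trend, replicate block and libraries; applying them to the changes from 30 min and to 120 min and to list counts, and the choice of LPS genes by their average response, were added after seeing the data. Sets were described by counts and medians and not tested.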

Additional observations from a re-analysis of the deposited data

Results flagged for a closer look

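Each result here is a genotype difference (D310N minus WT, log2) at 60 min whose change from another time passed limma's test of that change, adjusted over all tested genes. Relative to 0 min, the difference was more positive at 60 min for Gm5148 (1.2 ± 0.23, adjusted p = 0.0174), Rin2 (0.59 ± 0.06, adjusted p = 5.5e-07) and E2f8 (0.59 ± 0.11, adjusted p = 0.0174). It was more negative for Egr2 (-0.70 ± 0.14, adjusted p = 0.0471), Atf3 (-0.64 ± 0.06, adjusted p = 9.79e-08), Irg1 (-0.47 ± 0.05, adjusted p = 2.72e-06), Ccl7 (-0.44 ± 0.08, adjusted p = 0.00703) and Rgs1 (-0.43 ± 0.08, adjusted p = 0.014). Under omissions of 1 library the change from 0 min was lost 9 times for Gm5148, with adjusted p up to 0.138. Relative to 30 min it was more positive for Gm5148 (1.41 ± 0.23), Gm12657 (1.35 ± 0.23), Rin2 (0.58 ± 0.06), E2f8 (0.57 ± 0.11) and the pseudogene Gm6548 (0.46 ± 0.09), and more negative for Atf3 (-0.38 ± 0.06), with adjusted p of 0.00294, 0.00657, 1.66e-06, 0.0269, 0.0269 and 0.00294. Whether the libraries of these times were prepared or sequenced together is not given in the labels, and its part in these changes was not tested.

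From 60 to 120 min the difference moved by 0.30 ± 0.05 for Irg1 (adjusted p = 0.00359), by -0.65 ± 0.06 for Rin2 (adjusted p = 9.68e-08) and by -0.74 ± 0.14 for G530011O06Rik (adjusted p = 0.0054). It moved by -0.46 ± 0.10 for the chemokine Cxcl11 (adjusted p = 0.0274), whose genotype difference was -0.98 at 120 min, and by -0.33 ± 0.07 for Stat3 (adjusted p = 0.0349), which was not higher in D310N at 120 min (-0.09). No test for single outlying values was made within the groups of 3 libraries.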

How the results depend on the processing

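Of the 163 genes called at 60 min among those named or added, 132 kept their call and direction under all of 18 other settings, 31 lost the call under at least 1, and 0 changed sign. The 36 libraries set the spread: fitted on the libraries of the contrast alone, 2387 genes were called (1006 higher), and with library weights 3458 (1527 higher, 1931 lower). Leaving out 1 library gave 986 to 2084 calls, 346 to 868 of them higher. The change from 0 min (8 genes) gave 13 with quantile normalisation, 28 on its own libraries, 67 with weights and 4 to 28 with 1 library left out. The change from 30 min (6) gave 12 without a filter, 34 with weights and 4 to 10, and the change to 120 min (34) gave 123 with weights and 19 to 96. Quantile normalisation moved the median of all differences by 0.01 and trimmed-mean scaling by 0.00.

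On the libraries of the contrast alone, members called lower were 11 cytokines, 9 immediate early genes, 18 G1/S genes, 2 glycolysis genes and 8 Ly6 and Schlafen genes, and members called higher were 1 cytokine and 7 lysosome genes. With library weights, 10 cytokines, 9 immediate early genes, 21 G1/S genes, 17 serine and ATF4 genes and 8 Ly6 and Schlafen genes were lower, and 1 antigen presentation gene, 2 chemokines, 2 cytokines, 2 serine and ATF4 genes, 5 lectins and 7 lysosome genes higher. Immediate early genes called lower numbered 3 with quantile normalisation and 2 with a pseudocount of 8, and without a trend 0 glycolysis genes were lower. With 1 library left out, 3 to 8 cytokines, 1 to 4 immediate early genes, 7 to 17 G1/S genes, 0 to 1 glycolysis genes and 1 to 4 adhesion genes were lower, and 1 to 3 immediate early genes and 0 to 1 serine and ATF4 genes higher. Other list counts stayed within 1.5 times. The causes were not tested.

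Some differences near 0 changed sign. With 1 library left out, Tnf ranged from -0.01 to 0.06, Tnip1 from -0.03 to 0.02 (0.00 and 0.01 in between), Tnip3 from -0.04 to 0.02, Map3k8 from -0.03 to 0.05, Nfkbia from -0.06 to 0.01, Il1b from -0.02 to 0.02, Cxcl2 from -0.14 to 0.07 and Cxcl3 from -0.10 to 0.09. Tnf was -0.05 with quantile normalisation. With library weights Tnip1 and Tnip3 were 0.00, Il1b and Cxcl2 0.01 and Cxcl3 0.04.

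The replicate numbers recur in every group, but same-numbered D310N and WT libraries at 60 min did not deviate together (correlations 0.147, -0.0308 and -0.101). Same-numbered D310N libraries at 60 and 0 min correlated at 0.301, 0.405 and 0.0365. At 60 and 30 min they correlated at 0.244, 0.391 and 0.0941, and at 60 and 120 min at 0.352, 0.233 and 0.0955. Those of WT at 60 and 0 min correlated at -0.0372, 0.0157 and 0.125. D310N replicate 1 at 60 min and replicate 2 at 0 min correlated at -0.384, and the reverse pair at -0.315. The D310N numbers may therefore link libraries across times, so that agreement between times may not be independent. The main fit took no pairing, because the labels do not say what a replicate number marks. With the replicate block 1646 genes were called (647 higher, 999 lower), and with the block as a random effect (correlation 0.0735) 1558 (595 higher, 963 lower). The block changed no 60 min call of a named gene. For the change from 0 min, Egr2 lost its call with the additive block, and Cxcl10 gained a call with either block.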

Other observations

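By position, the window of 5 Mb with the largest share of genes called at 60 min with a size of at least 0.5, among 381 windows with 10 or more tested genes, was 30000001 to 35000000 on chromosome 19, where 13 of 25 tested genes were called. Of these, 9 were lower by at least 0.5: Ch25h, Ifit2, Ifit3, Ifit1bl1, Ifit3b and Ifit1, which lie in a row, and Prkg1, A1cf and Kif20b. Ifit3b had 7.04, 7.32 and 7.39 in D310N and 8.15, 8.09 and 7.90 in WT (-0.80 ± 0.11, limma adjusted p = 6.34e-06), and Ifit1bl1 6.86, 7.06 and 6.94 in D310N and 7.52, 7.62 and 7.36 in WT (-0.55 ± 0.08, adjusted p = 1.71e-05). Neither gene's genotypes overlapped, but both are close copies of their neighbours and may share reads with them. Prkg1, which encodes a cGMP-dependent kinase, had 4.89, 5.71 and 5.30 in D310N and 6.18, 6.33 and 6.31 in WT (-0.97 ± 0.20, adjusted p = 9.24e-04).

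The D310N libraries were not equally far from WT. Replicate 2 was the nearest of the 3 to the WT mean in 314 of the 570 genes called higher and in 484 of the 928 called lower. Its median distance was 0.24 in the higher genes, against 0.28 in each of the other 2, and 0.34 in the lower genes, against 0.46 and 0.38.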
